A study of Mus musculus with 6 samples.

Results

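The effector cytokines of encephalitogenic T cells are the secreted proteins through which CD4+ T cells specific for a myelin antigen act on other cells and on each other. The 10 genes described here, Csf2, Ifng, Il17a, Tnf, Lta, Il2, Il21, Il4, Il10 and Il3, were chosen by gene name from a read count table of 55536 genes. Of these, 15519 genes were tested, 9 of the cytokine genes among them. Il3 was too rare to be tested with the rest and is given by its read counts.

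Transcripts were measured by low-input RNA sequencing (Smart-seq2) in 6 libraries, 3 of HDAC1-cKO and 3 of WT cells. HDAC1-cKO donors had the genotype 2D2-Hdac1fl/fl-Cd4-Cre+, in which Cre driven by the Cd4 promoter removes the histone deacetylase gene Hdac1 from T cells. WT donors carried the same floxed Hdac1 alleles and the same 2D2 T cell receptor, which recognises a peptide of myelin oligodendrocyte glycoprotein (MOG), but no Cre. All mice were on the C57BL/6 background, and their age is not given in the sources used here. Naive CD45.2+ donor cells were injected into CD45.1+ recipients, which were immunised in the footpad 18 hours later with MOG35-55 peptide in complete Freund's adjuvant (CFA). The popliteal lymph nodes were taken after 4 days, and 500 donor 2D2+ CD4+ T cells were sorted per library. Each biological replicate pooled 2 mice, so the spread between libraries is a spread between pools.

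GM-CSF, encoded by Csf2, acts on myeloid cells and is needed by transferred or induced myelin-specific T cells to cause experimental autoimmune encephalomyelitis in mice. Interferon-gamma and IL-17A are the signature products of Th1 and Th17 cells. HDAC1 removes acetyl groups from histone tails within large corepressor complexes, and cytokine genes are among the loci at which histone acetylation changes when a T cell is activated.

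The libraries held 19956153 to 36307610 counts in HDAC1-cKO and 39036751 to 55900237 counts in WT, so the WT libraries were the deeper ones. All levels are CPM, read counts relative to library depth, on a depth scaled for library composition by the TMM method. Hdac1 stood at 17.2, 14.7 and 15.4 CPM in HDAC1-cKO replicates 1, 2 and 3, against 234, 235 and 244 CPM in WT replicates 1, 2 and 3, which matches the labels. All 16 T cell identity genes on a marker list were measurable, with 27288 to 37009 CPM in sum in HDAC1-cKO and 32142 to 38241 CPM in WT. Of the 16, 13 had negative log2 fold changes (median -0.22), against 50.3% of all tested genes. edgeR called 2 of them lower in HDAC1-cKO, Cd3e and Cd2, where 0.992% of all genes tested were called lower. There were 5 at an unadjusted p under 0.05, 4 called by DESeq2, 10 called by limma-voom, and 8 called by edgeR, all lower, without HDAC1-cKO replicate 2. The shares of all genes tested, in either direction, were 17.0%, 8.78%, 10.2% and 3.88%, in the same order. With the replicate number as a block edgeR called 1 of these T cell genes, where 0.419% of all genes were called. Without WT replicate 1 it also called 1, where 0.303% were called. Cd4, singled out after its values were seen, stood at 138 to 239 CPM in HDAC1-cKO against 145 to 182 CPM in WT. HDAC1-cKO replicate 2 stood apart: gene level followed GC content there (r = 0.614 over 8229 genes, against -0.30 to -0.07 in the other 5 libraries), and 0.922% of its counts were mitochondrial, against 1.34 to 1.67% elsewhere. WT replicate 1 stood apart in the cytokines themselves, as described below. In bulk libraries of sorted cells, fewer cells that make a cytokine and less RNA per cell cannot be told apart.

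Csf2 had the largest fitted fold change between the genotypes of the 9 tested cytokine genes, although the difference in mean CPM was larger for Ifng and Il17a. It had 1, 12 and 2 reads in HDAC1-cKO replicates 1, 2 and 3, against 727, 55 and 134 reads in WT replicates 1, 2 and 3. These are 0.0306, 0.321 and 0.0979 CPM in HDAC1-cKO, against 14.2, 0.999 and 3.53 CPM in WT. The genotypes did not overlap, the highest HDAC1-cKO library lying below the lowest WT library, and the WT libraries themselves differed 14.2-fold. Mean Csf2 was 0.150 ± 0.152 CPM in HDAC1-cKO libraries and 6.23 ± 6.99 CPM in WT libraries (SD, n = 3 each). Pooled over libraries, the 15 HDAC1-cKO reads against 916 WT reads amounted to 2.61% of the WT level (95% exact interval 1.46 to 4.33%, which covers counting error only, since reads without molecular identifiers are not independent molecules).

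The fitted log2 fold change of Csf2, HDAC1-cKO over WT, was -5.26 ± 1.14 (SE). In edgeR's quasi-likelihood test, with Benjamini-Hochberg adjustment over all 15519 genes, its adjusted p was 0.0609 (unadjusted 0.00171), which missed the threshold of 0.05. Csf2 had passed the low-count filter mainly through its WT libraries, so its adjusted p values, here and below, are given as a description. Its call differed between tools and filters. Csf2 passed with DESeq2 (adjusted p = 1.34e-06, log2 fold change -5.34), which called 8.78% of all genes, and missed with limma-voom with sample weights (adjusted p = 0.157), which called 10.2%. It also passed with edgeR where no low-count filter was applied (adjusted p = 0.0475, 1.73% of genes called), where counts were thinned to one total (adjusted p = 0.0371, 2.84% called), and with limma on log2(FPKM + 0.1) (adjusted p = 0.0403, 2.62% called). Leaving out WT replicate 1, the library with most Csf2, gave a log2 fold change of -3.84 (edgeR adjusted p = 0.118), and leaving out HDAC1-cKO replicate 2 gave -6.69 (edgeR adjusted p = 0.0695). Without both of these libraries it was -5.20, with an edgeR adjusted p of 0.0351 where 9.15% of all genes were called. The exact two-sided permutation test over the 6 libraries gave p = 0.1 for Csf2, the smallest value that 3 against 3 libraries allow.

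Csf2 lies on the minus strand of chromosome 11 at 54247271 to 54249667 (GRCm38), and Il3, which encodes a growth factor of early haematopoietic and mast cells, lies 15.6 kb away on the same strand at 54265303 to 54267277. The RefSeq promoter windows of this neighbouring pair are shown because Csf2 was highest in WT replicate 1 and Il3 in HDAC1-cKO replicate 2. Each is the 250 bases before the RefSeq start in GRCm38.p6, at chr11:54249900-54250149 for Csf2 and chr11:54267280-54267529 for Il3, written 5′ to 3′ on the minus strand, with capitals for the NFAT core GGAAA on either strand.
Csf2: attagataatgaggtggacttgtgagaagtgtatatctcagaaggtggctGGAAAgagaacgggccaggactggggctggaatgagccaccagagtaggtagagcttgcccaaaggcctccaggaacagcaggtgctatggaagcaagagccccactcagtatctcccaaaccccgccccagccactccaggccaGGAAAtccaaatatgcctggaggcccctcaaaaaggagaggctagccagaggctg
Il3: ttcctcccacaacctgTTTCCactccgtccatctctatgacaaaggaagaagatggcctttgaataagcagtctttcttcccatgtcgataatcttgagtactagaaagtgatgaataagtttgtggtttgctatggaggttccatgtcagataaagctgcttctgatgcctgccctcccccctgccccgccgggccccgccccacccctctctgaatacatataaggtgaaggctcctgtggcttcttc
The Csf2 window held 2 matches and the Il3 window 1, and 55.6% of all 32851 promoter windows of this length hold at least 1. Neither window held the AP-1 motif TGANTCA, present in 6.75% of windows, or the E-box CACGTG, present in 6.02%. The RefSeq start of Csf2 lies 232 bases upstream of the start in the GENCODE M21 annotation that the count table follows. The Csf2 window therefore leaves out the bases just upstream of the GENCODE start, and its motif matches say nothing about them. Of the exon bases of Csf2, 12.0% overlap Gm12223 on the other strand, which took 0 reads.

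Il3 had 0, 118 and 0 reads in HDAC1-cKO replicates 1, 2 and 3, against 0, 0 and 8 reads in WT replicates 1, 2 and 3. The genotypes overlapped, since both had libraries without a read. A count of 0 allows up to 0.0919 and 0.147 CPM in HDAC1-cKO replicates 1 and 3, and up to 0.0585 and 0.0545 CPM in WT replicates 1 and 2 (3 counts per library). HDAC1-cKO replicate 2 thus reached 3.15 CPM of Il3, all but 8 of the reads in the series, while it held 12 reads of Csf2. Fitted without a low-count filter, Il3 had an edgeR adjusted p of 0.471.

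**Figure D1:**
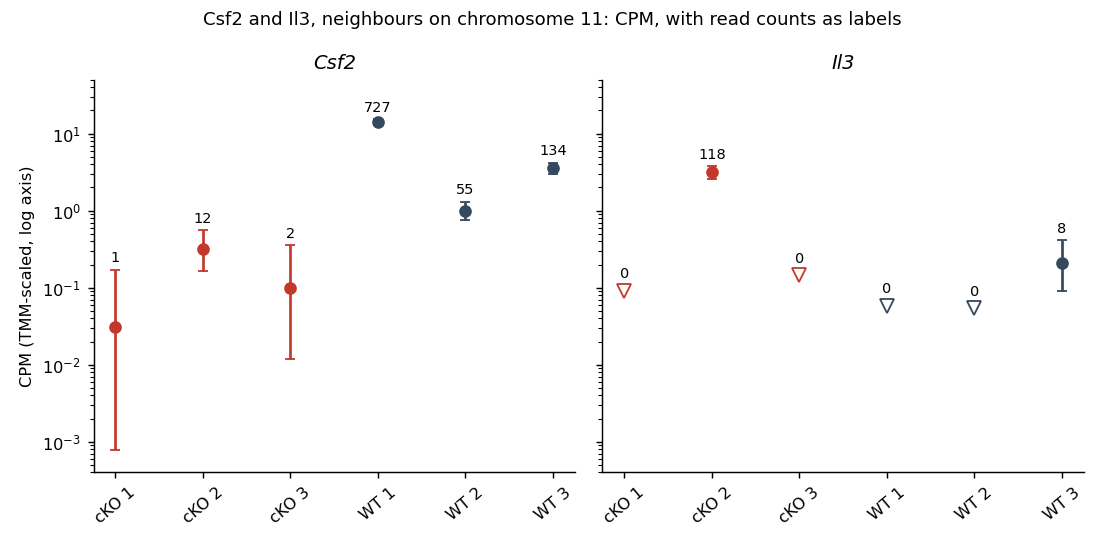
CPM of Csf2 (left) and Il3 (right) on a log axis in each HDAC1-cKO (red) and WT (blue) library, with the read count printed above each point. Vertical lines are 95% exact Poisson intervals of the count, and open triangles mark the level that a count of 0 allows. The 3 HDAC1-cKO libraries lie at 0.0306 to 0.321 CPM of Csf2, all below the WT libraries, while Il3 was read in 1 library of each genotype.

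Across the set, no tested cytokine gene was called higher or lower by edgeR (0 of 9, where 0.979% of all genes were called higher, 0.992% lower and 1.97% in either direction). At an unadjusted p under 0.05 there was 1 of 9, Csf2, against 17.0% of all genes. DESeq2 called 1, Csf2, of the 8 to which it gave an adjusted p, and limma-voom called 0 of 9. Csf2 was also the only gene of the 10 whose genotypes did not overlap, whereas 24.6% of all tested genes had the 3 libraries of one genotype all above those of the other. By edgeR and by overlap, the shares of the cytokine genes did not exceed these backgrounds. Log2 fold changes were negative in 7 of 9, with a median of -0.62, against 50.3% of all tested genes and a median of -0.00. Without WT replicate 1 the median of the 9 was 0.12 and 4 of 9 were negative.

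That library held the highest level of 8 of the 10 cytokine genes, whereas it was the highest of the 6 libraries for 13.6% of all tested genes. The other 2, Lta and Il3, were highest in HDAC1-cKO replicate 2, which was highest for 26.1% of all tested genes. Summed over the 10 genes, the level was 147, 143 and 139 CPM in HDAC1-cKO replicates 1, 2 and 3, against 357, 162 and 128 CPM in WT replicates 1, 2 and 3. WT replicates 2 and 3 therefore lay on both sides of the HDAC1-cKO libraries, and WT replicate 1 lay above all others.

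**Figure D2:**
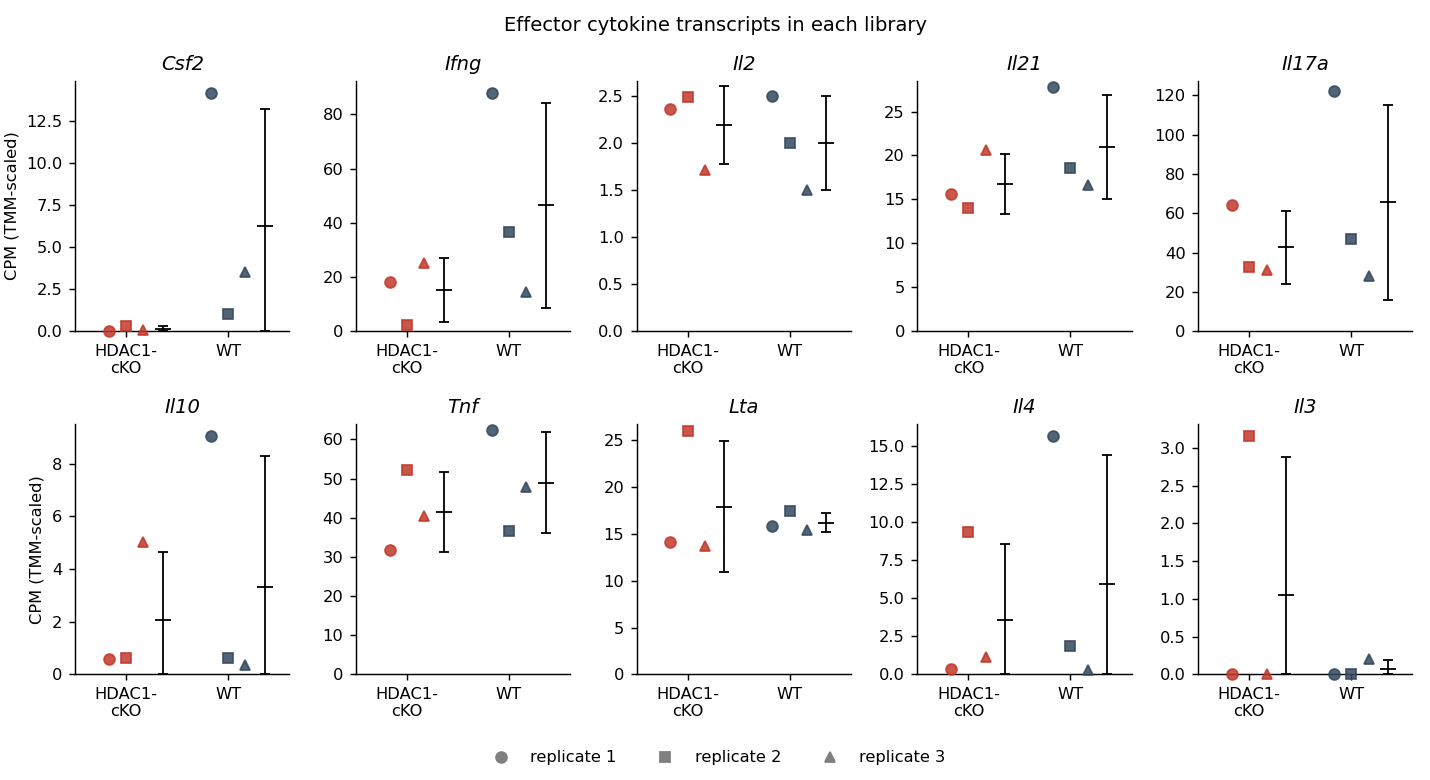
CPM of each of the 10 cytokine genes in HDAC1-cKO (red) and WT (blue) libraries, with the replicate given by the symbol, and the mean ± SD of each group (n = 3) as a horizontal mark with a vertical line, cut at 0. WT replicate 1 is the highest library in 8 of the 10 panels, and the groups do not overlap for Csf2, with 0.0306 to 0.321 CPM in HDAC1-cKO against 0.999 to 14.2 CPM in WT.

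Ifng encodes interferon-gamma, which activates macrophages and raises antigen presentation. It stood at 18.1, 2.11 and 25.1 CPM in HDAC1-cKO replicates 1, 2 and 3 (590, 79 and 513 reads), against 88.0, 36.7 and 14.6 CPM in WT replicates 1, 2 and 3 (4511, 2019 and 553 reads). WT replicate 3 lay below 2 of the HDAC1-cKO libraries, so the genotypes overlapped, and HDAC1-cKO replicate 2 was the lowest library. Means were 15.1 ± 11.8 CPM in HDAC1-cKO libraries and 46.4 ± 37.7 CPM in WT libraries (SD, n = 3 each). The log2 fold change was -1.63 ± 0.85 with an edgeR adjusted p of 0.391, and an exact permutation p of 0.3. It was -0.78 without WT replicate 1, -1.12 without HDAC1-cKO replicate 2 and -0.26 without both. Ifng lies on the plus strand of chromosome 10 at 118441046 to 118445892 (GRCm38), and 25.9% of its exon bases overlap a predicted gene on the same strand, Gm49751, which took 53 reads in all 6 libraries. Its promoter window, at chr10:118440796-118441045 on the plus strand, is shown as that of the Th1 cytokine, and the capitals mark its only match to the NFAT core on either strand.
Ifng: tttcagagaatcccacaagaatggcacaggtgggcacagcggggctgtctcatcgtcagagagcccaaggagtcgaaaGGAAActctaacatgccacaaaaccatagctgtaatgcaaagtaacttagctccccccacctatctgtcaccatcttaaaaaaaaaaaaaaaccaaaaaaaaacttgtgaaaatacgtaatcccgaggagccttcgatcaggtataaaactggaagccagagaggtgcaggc
It held neither TGANTCA nor CACGTG.

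Il17a encodes IL-17A, which induces chemokines that attract neutrophils. It stood at 64.3, 32.7 and 30.9 CPM in HDAC1-cKO replicates 1, 2 and 3, against 122, 46.9 and 28.2 CPM in WT replicates 1, 2 and 3. The lowest and the highest library were both WT. Means were 42.6 ± 18.8 CPM in HDAC1-cKO libraries and 65.7 ± 49.7 CPM in WT libraries (SD, n = 3 each), and the log2 fold change of -0.62 ± 0.52 did not pass (edgeR adjusted p = 0.615). Without WT replicate 1 it was 0.18. The promoter window of Il17a was the only one among those of the cytokine genes to hold TGANTCA, and it is shown for that reason, at chr1:20730655-20730904 on the plus strand of GRCm38.p6, with the match in capitals.
Il17a: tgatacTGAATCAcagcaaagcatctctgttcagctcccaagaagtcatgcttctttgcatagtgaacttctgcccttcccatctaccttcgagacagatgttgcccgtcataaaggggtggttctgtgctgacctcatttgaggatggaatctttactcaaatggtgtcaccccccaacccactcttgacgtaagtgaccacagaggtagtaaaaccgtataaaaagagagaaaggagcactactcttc
The gene itself lies at 20730905 to 20734496 on chromosome 1.

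Tnf and Lta encode TNF and lymphotoxin-alpha, ligands of the TNF receptors, and lie 1157 bases apart on the minus strand of chromosome 17. Tnf stood at 31.7, 52.1 and 40.4 CPM in HDAC1-cKO replicates 1, 2 and 3, against 62.3, 36.7 and 47.9 CPM in WT replicates 1, 2 and 3. Lta stood at 14.1, 26.0 and 13.7 CPM in HDAC1-cKO, against 15.9, 17.4 and 15.4 CPM in WT. The genotypes overlapped for both genes, and HDAC1-cKO replicate 2 was the highest HDAC1-cKO library for both. The log2 fold change was -0.24 ± 0.24 for Tnf (edgeR adjusted p = 0.691) and 0.15 ± 0.26 for Lta (edgeR adjusted p = 0.840). The WT libraries spanned 1.13-fold for Lta, the narrowest range of the 9 tested genes in WT, and the Lta fold change was -0.23 without HDAC1-cKO replicate 2.

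Il2 and Il21 encode growth factors that signal through the common gamma chain and lie 96.8 kb apart on chromosome 3. IL-2 sustains T cell division and regulatory T cells, and IL-21 helps B cells and Th17 cells. Il2 was rare, with 2.36, 2.49 and 1.71 CPM in HDAC1-cKO replicates 1, 2 and 3 (77, 93 and 35 reads), against 2.50, 2.00 and 1.50 CPM in WT replicates 1, 2 and 3 (128, 110 and 57 reads). Il21 stood at 15.6, 14.0 and 20.6 CPM in HDAC1-cKO, against 27.7, 18.6 and 16.6 CPM in WT. The genotypes overlapped for both genes, and libraries of 1 genotype stayed within 1.67-fold of each other. Log2 fold changes were 0.13 ± 0.33 for Il2 (edgeR adjusted p = 0.892) and -0.33 ± 0.24 for Il21 (edgeR adjusted p = 0.554). Of the 50-base stretches of the Il2 transcripts, 12.6% also occur in Ntan1, an unrelated gene with 20032 reads in all 6 libraries and a log2 fold change of 0.03, so the Il2 reads are uncertain to that extent. Il21 shares 8.92% of its exon bases with Gm12534 on the other strand (556 reads), and the library kit does not mark strand.

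Il4 and Il10 had the widest ranges between WT libraries of the 9 tested cytokine genes. IL-4 directs Th2 responses, and IL-10 restrains inflammation. Il4 had 0.337, 9.33 and 1.13 CPM in HDAC1-cKO replicates 1, 2 and 3 (11, 349 and 23 reads), against 15.6, 1.83 and 0.290 CPM in WT replicates 1, 2 and 3 (801, 101 and 11 reads). Il10 had 0.582, 0.615 and 5.04 CPM in HDAC1-cKO (19, 23 and 103 reads), against 9.05, 0.617 and 0.342 CPM in WT (464, 34 and 13 reads). For each gene 1 library of each genotype stood far above the rest, and these were WT replicate 1 with HDAC1-cKO replicate 2 for Il4 and WT replicate 1 with HDAC1-cKO replicate 3 for Il10. The libraries of 1 genotype spanned 27.7-fold in HDAC1-cKO and 53.9-fold in WT for Il4, and 8.66-fold in HDAC1-cKO and 26.4-fold in WT for Il10. Log2 fold changes were -0.70 ± 1.37 for Il4 (edgeR adjusted p = 0.859) and -0.73 ± 1.27 for Il10 (edgeR adjusted p = 0.838). Without WT replicate 1 they were 1.74 for Il4 and 2.07 for Il10, neither past the threshold, so these data give no direction for either gene.

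**Figure D3:**
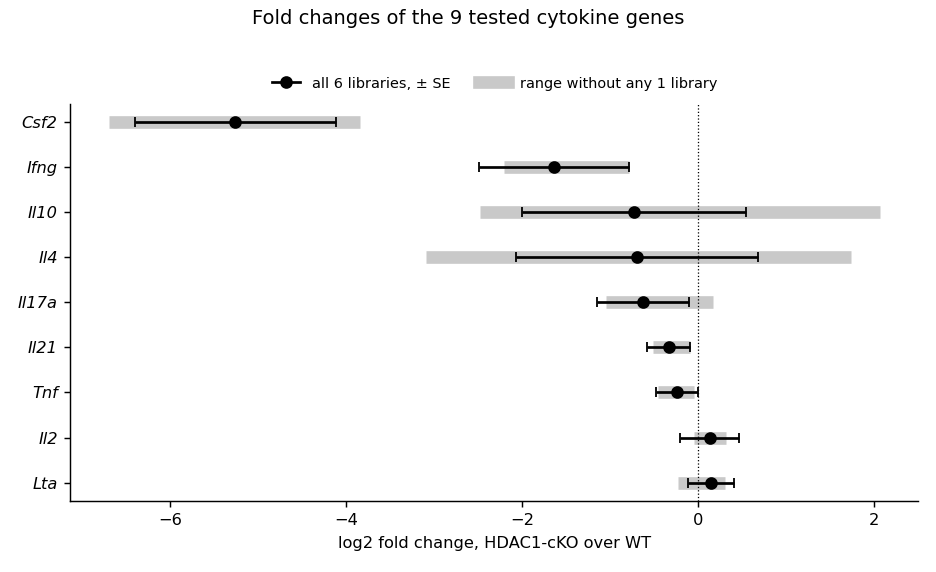
Log2 fold change, HDAC1-cKO over WT, of the 9 tested cytokine genes from edgeR, as points ± SE from all 6 libraries, with grey bars for the range when 1 library is left out. Csf2 runs from -6.69 to -3.84, and the bars of Il10, Il4, Il17a, Il2 and Lta span 0.

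Per transcript length, in FPKM as deposited by the authors, Il17a, Tnf and Ifng were the leading cytokine transcripts in every library except HDAC1-cKO replicate 2. Il17a ranked first in 4 libraries, and Tnf ranked first in HDAC1-cKO replicate 2 and WT replicate 3. Ifng ranked above Tnf in WT replicates 1 and 2, and was eighth in HDAC1-cKO replicate 2, where it reached 1.72 FPKM. Mean Il17a was 35.9 ± 15.9 FPKM in HDAC1-cKO libraries and 55.4 ± 41.7 FPKM in WT libraries, and mean Tnf was 24.9 ± 6.10 FPKM in HDAC1-cKO libraries and 29.6 ± 7.68 FPKM in WT libraries (SD, n = 3 each), which do not differ beyond their spread. Mean Ifng was 12.4 ± 9.65 FPKM in HDAC1-cKO libraries and 37.9 ± 30.7 FPKM in WT libraries, and mean Lta was 12.8 ± 4.93 FPKM in HDAC1-cKO libraries and 11.6 ± 0.748 FPKM in WT libraries. In HDAC1-cKO these 2 were within each other's spread. Csf2 took 0.0357, 0.392 and 0.129% of the summed FPKM of the 10 genes in HDAC1-cKO replicates 1, 2 and 3, against 6.37, 1.07 and 4.99% in WT replicates 1, 2 and 3, so its share did not overlap either.

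Cytokine mRNAs are short-lived, and many carry AU-rich elements that RNA-binding proteins such as tristetraprolin (Zfp36) recognise. The heptamer TATTTAT occurred at least once in the longest coding transcript of 9 of the 10 cytokine genes, with Il3 the exception, against 32.8% of 11285 tested coding genes. The Il3 transcript searched was 629 bases long. The absence covers only that annotated form and does not show that Il3 mRNA lacks AU-rich elements. The heptamer occurred 9 times in Csf2, 8 times in Tnf, 4 times each in Ifng and Il10, 3 times each in Il2, Il17a and Lta, and 2 times each in Il21 and Il4. At least 9 copies occurred in 0.0709% of tested coding genes. The cytokine transcripts were also shorter, with a median of 1189.5 bases against 3027 bases. Csf2 and Tnf had the most copies and had log2 fold changes of -5.26 (Csf2) and -0.24 (Tnf). Of 11 genes of post-transcriptional cytokine control, edgeR called 0, with 1 at an unadjusted p under 0.05, 0 called by DESeq2 and 2 by limma-voom. The shares of all genes tested were 1.97%, 17.0%, 8.78% and 10.2%, in the same order. All 11 had negative log2 fold changes (median -0.19), against 50.3% of all tested genes. Zfp36l2 averaged 5.42 ± 1.33 CPM in HDAC1-cKO libraries and 9.02 ± 2.75 CPM in WT libraries (edgeR adjusted p = 0.266), and Zfp36 averaged 70.8 ± 29.9 CPM in HDAC1-cKO libraries and 97.9 ± 8.61 CPM in WT libraries (edgeR adjusted p = 0.426; SD, n = 3 each). The log2 fold change of Zfp36 was -0.47 with all 6 libraries and -0.88 without HDAC1-cKO replicate 2, where it passed (edgeR adjusted p = 0.0148), and it passed with limma-voom at -0.83 (adjusted p = 0.0128) and without both that library and WT replicate 1 at -0.95 (edgeR adjusted p = 0.00840).

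Among 34 genes that regulate effector cytokine genes, 33 were tested and 2 fell in HDAC1-cKO, none rising, against 0.992% of all genes tested called lower, with a median log2 fold change of -0.31. There were 10 at an unadjusted p under 0.05, 6 called by DESeq2 and 8 by limma-voom, against 17.0%, 8.78% and 10.2% of all genes tested. This list, like the others, was chosen with earlier results of these data known, so its counts are a description and not a test of the list. Bhlhe40, a transcription factor that T cells need for GM-CSF production in mice, fell to 246, 201 and 296 CPM in HDAC1-cKO replicates 1, 2 and 3, against 485, 424 and 468 CPM in WT replicates 1, 2 and 3. The genotypes did not overlap, and the log2 fold change was -0.89 ± 0.15 (edgeR adjusted p = 0.0323). Il18rap, which encodes an accessory subunit for IL-18, an inducer of interferon-gamma, fell to 43.3, 23.9 and 55.6 CPM in HDAC1-cKO, against 96.2, 115 and 135 CPM in WT. Again the genotypes did not overlap, and the log2 fold change was -1.50 ± 0.29 (edgeR adjusted p = 0.0447). Tbx21, which encodes the Th1 factor T-bet and was singled out after its values were seen, stood at 22.6 to 53.9 CPM in HDAC1-cKO against 61.1 to 70.9 CPM in WT and did not pass (edgeR adjusted p = 0.340).

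Of 26 other T cell cytokines and TNF ligands, 18 were tested (median log2 fold change -0.24). There were 6 at an unadjusted p under 0.05, 4 called by DESeq2 and 4 by limma-voom, against 17.0%, 8.78% and 10.2% of all genes tested. With edgeR 1 fell in HDAC1-cKO and none rose, where 0.992% of all genes tested were called lower. This was Osm, which encodes oncostatin M of the IL-6 family, at 29.0, 24.2 and 26.8 CPM in HDAC1-cKO replicates 1, 2 and 3, against 76.1, 48.1 and 66.8 CPM in WT replicates 1, 2 and 3. Its genotypes did not overlap (log2 fold change -1.25 ± 0.19, edgeR adjusted p = 0.0260). Of 9 T cell chemokines, 4 were tested (median log2 fold change -0.90). Against the same shares of all genes tested, 3 were at an unadjusted p under 0.05, 1 was called by DESeq2 and 0 by limma-voom. Ccl1, whose product binds CCR8, was the 1 gene that fell in edgeR's test. It had 2, 10 and 1 reads in HDAC1-cKO, against 132, 86 and 272 reads in WT (log2 fold change -4.75 ± 0.83, edgeR adjusted p = 0.0336). Like Csf2, Ccl1 was a rare transcript, at 0.0490 to 0.267 CPM in HDAC1-cKO against 1.56 to 7.16 CPM in WT, and it too passed the low-count filter through its WT libraries, so its call is given as a description. When HDAC1-cKO replicate 1, HDAC1-cKO replicate 3, WT replicate 1 or WT replicate 3 was left out, none of Osm, Ccl1, Bhlhe40 and Il18rap passed, and without WT replicate 2 Osm alone passed, with edgeR adjusted p values of up to 0.120 for Osm, 0.135 for Ccl1, 0.130 for Bhlhe40 and 0.159 for Il18rap. With the replicate number as a block, Ccl1, Bhlhe40 and Il18rap missed the threshold as well (edgeR adjusted p = 0.0806, 0.0568 and 0.0587), as Ccl1 did with limma-voom (adjusted p = 0.0613).

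Among 19 receptor genes of these cytokines, edgeR called 0 of 15 tested, with 4 at an unadjusted p under 0.05, 2 called by DESeq2 and 6 by limma-voom, and a median log2 fold change of -0.46. Of all genes tested, edgeR called 1.97%, 17.0% were at an unadjusted p under 0.05, DESeq2 called 8.78% and limma-voom 10.2%. The lowest p values belonged to Tnfrsf1b, a TNF receptor, with 24.0 ± 7.23 CPM in HDAC1-cKO libraries and 44.1 ± 2.75 CPM in WT libraries (edgeR adjusted p = 0.0942), and to Il2rb, the beta chain of the IL-2 receptor, with 372 ± 41.0 CPM in HDAC1-cKO libraries and 514 ± 45.8 CPM in WT libraries (edgeR adjusted p = 0.0943; SD, n = 3 each). Both passed with DESeq2 and with limma-voom, and Tnfrsf1b also passed in edgeR without HDAC1-cKO replicate 2 (adjusted p = 0.0386). Csf2rb, the shared signalling chain for GM-CSF and IL-3, which was singled out after its values were seen, stayed at 0 to 0.107 CPM in HDAC1-cKO against 0 to 0.127 CPM in WT. Of 22 chromosomal neighbours of the cytokine genes, edgeR called 0 of 16 tested, with a median log2 fold change of -0.13. Against the same shares of all genes tested, 2 neighbours were at an unadjusted p under 0.05, 1 was called by DESeq2 and 2 by limma-voom. The lowest p values there were those of Mdm1, near Ifng, with 52.4 ± 5.35 CPM in HDAC1-cKO libraries and 33.3 ± 6.48 CPM in WT libraries (edgeR adjusted p = 0.10), and 4932438A13Rik, near Il2, with 32.5 ± 3.32 CPM in HDAC1-cKO libraries and 42.6 ± 5.20 CPM in WT libraries (edgeR adjusted p = 0.228; SD, n = 3 each). Mdm1 passed with DESeq2 and with limma-voom. Without HDAC1-cKO replicate 2, edgeR called 3.88% of all genes tested in either direction. In that fit 4 regulators, 3 other cytokines and TNF ligands, 2 receptor genes, 2 genes of post-transcriptional control, 1 chemokine and 0 neighbours were called, all lower in HDAC1-cKO. The marker lists held lower calls in that fit as well, 8 of 16 T cell identity genes and 1 each of the myeloid, the NK and CD8, and the regulatory T cell genes.

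**Figure D4:**
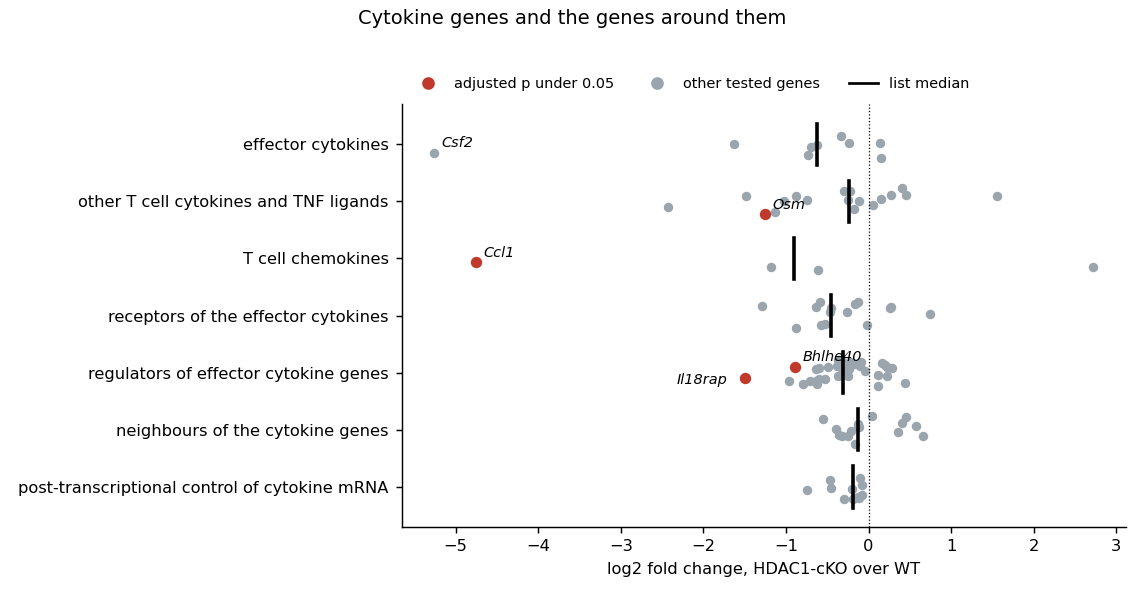
Log2 fold change, HDAC1-cKO over WT, of every tested gene (1 point each) in the effector cytokines and in 6 lists of related genes, with the list median as a vertical line and genes called by edgeR at an adjusted p under 0.05 in red. The effector cytokines have a median of -0.62 and 0 called genes, and the 4 called genes, Osm, Ccl1, Il18rap and Bhlhe40, all lie below 0.

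Markers of other cells moved between libraries as well. Genes of NK and CD8 T cells summed to 573 to 990 CPM in HDAC1-cKO against 371 to 1934 CPM in WT, with the 1934 CPM in WT replicate 1, the library with most Ifng, Il17a, Csf2, Il4 and Il10. Of the 10 genes on that list, only Ncr1, a marker of NK cells, was at 0 in every library, and the other 9 were tested. Myeloid and dendritic cell genes summed to 331 to 598 CPM in HDAC1-cKO against 227 to 494 CPM in WT. Of these, 6 of 20 were at 0 in every library (Csf1r, Cd209a, Flt3, Clec9a, Cd14 and S100a8). B cell genes summed to 156 to 332 CPM in HDAC1-cKO against 75.1 to 197 CPM in WT. For the myeloid and the B cell sums WT replicate 1 was the lowest of the 6 libraries, at 227 and 75.1 CPM. Mast cell and basophil genes, which mark other producers of IL-4, summed to 5.79 to 11.7 CPM in HDAC1-cKO against 7.08 to 12.3 CPM in WT. The 12.3 CPM were in WT replicate 1. Of these genes, 5 of 10 were at 0 in every library, Fcer1a, Gata2, Cma1, Tpsb2 and Prss34. Regulatory T cell genes, which mark a source of IL-10, summed to 720 to 873 CPM in HDAC1-cKO against 1046 to 1102 CPM in WT. Il2ra, on this list and on the receptor list, was singled out after its values were seen. It held 124 to 324 CPM of that sum in HDAC1-cKO and 349 to 382 CPM in WT. The number of regulatory T cells was not measured. Other genes of each of these lists were read, so a marker at 0 does not show that its cell type was absent. The part of such cells in the cytokine levels was not tested. edgeR called none of these marker genes (0 of 11 myeloid, 10 B cell, 9 NK and CD8, 2 mast cell and 8 regulatory T cell genes tested), with 2, 2, 1, 0 and 2 at an unadjusted p under 0.05, 1, 1, 1, 0 and 0 called by DESeq2, and 1, 1, 1, 0 and 2 called by limma-voom. The shares of all genes tested were 1.97%, 17.0%, 8.78% and 10.2%, in the same order of tests.

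The genes whose level followed a cytokine gene most closely over the 6 libraries were sought for the 3 most abundant by CPM, among 8331 genes with a mean of at least 10 CPM. Pearson's r of log2(CPM + 1) is given as a description, since the points share libraries and their depth. For Il17a they were Hook3 (r = 0.990), Gm14044 (r = 0.969) and Gm10268 (r = 0.964), the last 2 of them processed pseudogenes. For Tnf they were Map2k3 (r = 0.988), Trappc12 (r = 0.986) and Bcor (r = 0.983). For Ifng they were Ggps1 (r = 0.998), Slc30a7 (r = 0.998) and the processed pseudogene Gm9057 (r = 0.995). No cytokine gene was among them.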

How the data were processed

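The authors deposited a table of raw read counts, all whole numbers, and a table of FPKM that covers the same genes in all 6 libraries. Per the submitters' processing notes, R 3.6.1, DESeq2 1.24.0, Picard 2.19.2 and STAR 2.5.2b were used, and builds GRCm38/mm10 and GRCh38/hg38 were named. What each tool did is not given in the sources used here, nor is the read counter or its strand setting. Per the labels' protocols, libraries were made by Smart-seq2 and Nextera XT, which does not mark strand, and sequenced as 50-base single reads. The deposited coordinates matched GENCODE M21 for 55450 of 55450 genes found. Over 10896 genes with at least 50 counts in each library, the FPKM scaling factor equalled the DESeq2 size factor. No column was left without a sample (0).

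Counts were filtered with filterByExpr (10 counts, worth 0.265 CPM in the median library), scaled by TMM and tested with edgeR 4.0.16 in R 4.3.3 (robust quasi-likelihood F test, two-sided, genotype as the only term, adjusted p under 0.05 over all genes tested). Alternatives used DESeq2 1.42.0, limma 3.58.1 (voom with sample weights, and FPKM with a pseudocount of 1 or 0.1), other scalings and filters, thinned counts, GC offsets, a replicate block and leaving out libraries. For log2(FPKM + pseudocount), fold changes understate those of low genes. A single value was also compared by an exact permutation test of the 6 libraries; adjusted over the 10 cytokine genes, all p values were 1. Counts of libraries within a genotype differed by 12.0 to 109.5 times the variance of sampling noise (chi-square over its degrees of freedom), so none was a repeat deposit. Tested on simulated counts for 15048 genes with 200 changed, the edgeR fit found 38% of 2-fold changes and 60% of 4-fold changes, and 2.97% of its calls were false. The simulated counts had no GC trend and no library that stood apart, so these rates need not hold for the libraries here.

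The cytokine genes and all lists were chosen with earlier results of these data known. Beside the 10 cytokine genes and Hdac1, each list contributes its called genes, up to 4 by lowest p, or otherwise its 2 genes of lowest p, except marker lists, which are given as counts and sums with the markers at 0. Cd3e and Cd2, the called genes of a marker list, and genes said to have been singled out or picked after their values were seen fall outside this rule. Shares of the summed level were also computed per FPKM, since levels of different genes are compared per length. Promoter windows, found for 9 of the 10 genes (Il10 had none), are from RefSeq on GRCm38.p6. Plots were made in Python 3.11.15 (matplotlib 3.10.9).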

Additional observations from a re-analysis of the deposited data

How the results depend on the processing

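The number of genes called (306) was 65 with the replicate block, 535 with GC offsets, 1363 with DESeq2, 1589 with limma-voom, 1429 without both HDAC1-cKO replicate 2 and WT replicate 1 (an alternative chosen after seeing the data), 818 at an adjusted p under 0.1 and 24 at 0.01. Without 1 library it ran from 26 (without WT replicate 3) to 626 (without HDAC1-cKO replicate 2). The number of cytokine genes called (0) was 1, Csf2 each time, with no low-count filter, with DESeq2, with FPKM and a pseudocount of 0.1, with thinned counts, without those 2 libraries and at an adjusted p under 0.1. Csf2 stayed negative in all 19 alternative fits that gave it a value (a filter of 10 CPM in 3 libraries removed it), from -6.69 to -2.37 on the log2 scale, with adjusted p from 1.34e-06 to 0.194, the lowest from DESeq2 and the highest without HDAC1-cKO replicate 3. Ifng and Tnf kept a negative sign in all 20 alternative fits. Other log2 fold changes reversed: Il4 was 0.27 with the replicate block; Il10 was 1.07 and Lta -0.16 with limma-voom; and Il21 was 0.028 (-0.51 to -0.09 without 1 library), Il17a 0.34, Il10 2.50 and Lta -0.24 without those 2 libraries. Without 1 library, they ran from -0.23 to 0.30 for Lta, -1.05 to 0.18 for Il17a, -2.48 to 2.07 for Il10, -3.09 to 1.74 for Il4 and -0.039 to 0.31 for Il2. The cause of these changes was not tested. Whether libraries with equal replicate numbers belong together is not given in the sources used here. Deviations of same-numbered libraries correlated at 0.208, 0.00665 and -0.140 over 8229 genes, and not every library correlated best with its own number. With 3 libraries per genotype, and HDAC1-cKO replicate 2 standing apart, these correlations cannot decide whether the libraries are paired. Csf2 had an adjusted p of 0.140 with the block. Depth limits Il3, Il2 and Csf2 in HDAC1-cKO, where single libraries held 0 to 118 reads.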

Other observations

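Il22 and Il17f, cytokines of Th17 cells that were picked here after their values were seen, were far more abundant than the effector cytokines described above. Il22 stood at 824, 974 and 975 CPM in HDAC1-cKO replicates 1, 2 and 3, against 945, 576 and 500 CPM in WT replicates 1, 2 and 3 (log2 fold change 0.46 ± 0.23, edgeR adjusted p = 0.361). A near-identical copy, Iltifb, shares 41.0% of the 50-base stretches of Il22, so the split of reads between them is uncertain. Il17f, which lies near Il17a, stood at 561, 692 and 544 CPM in HDAC1-cKO, against 608, 499 and 248 CPM in WT (log2 fold change 0.41 ± 0.29, edgeR adjusted p = 0.539). The genotypes overlapped for both genes.

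Fasl, Tnfsf14 and Il13 were also picked after their values were seen. Fasl, whose product triggers death of cells that bear Fas, stood at 1.38, 1.58 and 1.52 CPM in HDAC1-cKO replicates 1, 2 and 3, against 16.0, 4.39 and 3.84 CPM in WT replicates 1, 2 and 3. Tnfsf14, which encodes LIGHT, stood at 4.17, 10.7 and 5.39 CPM in HDAC1-cKO, against 19.9, 17.3 and 19.6 CPM in WT. The genotypes did not overlap for either, as for 24.6% of all tested genes, and neither passed (edgeR adjusted p = 0.0724 for Fasl and 0.0677 for Tnfsf14). Il13, a Th2 cytokine beside Il4, had 0, 55 and 0 reads in HDAC1-cKO, against 49, 0 and 27 reads in WT, so that, like Il4 and Il3, it was read in HDAC1-cKO replicate 2 and absent or rare in the other libraries of that genotype.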
